A study of Rattus norvegicus with 8 samples.

Results

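The Dusp, Spry and Spred genes encode inhibitors of the ERK kinase cascade, and 10 of them were followed in rat spinal cord cultures treated with FGF9, a growth factor of the fibroblast family that acts through FGF receptors. They were Dusp1, Dusp4, Dusp5, Dusp6, Spry1, Spry2, Spry4, Spred1, Spred2 and Spred3, chosen by gene symbol among array features whose annotation gives a single symbol. Each of the 10 had 1 such feature, out of 14506 genes measured in this way. The cultures were prepared from dissociated spinal cords of Sprague-Dawley embryos, in which glia and neurons grow together and axons become myelinated. The groups were FGF9 at 100 ng/ml for 24 h, untreated control at 24 h, FGF9 at 100 ng/ml for 10 days and untreated control at 10 days, with 2 arrays each and 8 in all. The added protein was human FGF9. The labels differ on the material, since titles and cell type say myelinating culture but the source name says astrocytes grown from neurospheres.

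Binding of an FGF to its receptor starts a relay in which adaptor proteins activate RAS, RAS activates RAF, and RAF drives MEK and then ERK. Active ERK switches on genes whose products restrain the relay, which forms a negative feedback loop. Dusp proteins of this group are phosphatases that remove the activating phosphates from ERK or related kinases. Sprouty (Spry) proteins act upstream, between the receptor and RAF, and Spred proteins bring neurofibromin, the product of Nf1, to the membrane, where it turns RAS off. In glia, ERK signalling acts in precursor proliferation, in oligodendrocyte myelination and in astrocyte reactivity.

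Values are log2 expression values, so a difference of 1 is a doubling, and levels of different genes are not set against each other because each feature binds with its own strength. At each time, FGF9 and control arrays of equal replicate number have names with a common prefix and are called a pair. At 24 h pair 1 carried CL1 and pair 2 carried CL2, at 10 days pair 1 carried CL2 and pair 2 carried AA1, and what a prefix marks is not stated. Array medians lay between 6.62 and 6.73. Over all features the correlation of the 2 AA1 arrays with the other 6 was 0.897 to 0.939, below that within AA1 (0.968) or among the other 6 (0.962 to 0.989). Results were therefore fitted across all 14506 genes with limma both without and with the pair as a block, which changes the standard error (SE) of an FGF9 difference but leaves its size as it was. Adjusted p-values are by Benjamini and Hochberg over all genes, and a gene passed, or was called, under 0.05. Whether replicates were separate cultures is not stated, so p-values measure only the spread between these arrays, which may be technical, and 2 arrays a group limit the precision.

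With FGF9, 9 of the 10 inhibitors stood higher than in control in every pair, by 0.23 to 3.69 log2 units over 36 differences, while Dusp1 differed by -0.10 to 0.14. FGF9 was above control in all 4 pairs for 14.2% of all genes. A difference of at least 0.5 in all 4 pairs was found for 5 inhibitors, Dusp5, Dusp6, Spry1, Spry2 and Spry4, and for 0.917% of all genes. The median difference of the 10 was 0.74 at 24 h and 0.95 at 10 days, beside 0.00 and 0.02 over all genes. Averaged over both times, 9 inhibitors rose in the fit with the block, Dusp4, Dusp5, Dusp6, Spry1, Spry2, Spry4, Spred1, Spred2 and Spred3, where 6.48% of all genes were called and 3.09% were called as higher. Without the block none passed, and 0% of all genes did (smallest adjusted p over all genes = 0.122, with 8 inhibitors among 770 genes at an unadjusted p under 0.05). With the random block, which treats the pair as a random effect, 8 rose, all but Dusp1 and Spred2, beside 3.77% of all genes called and 2.47% called as higher. The count of 9 in the block fit fell to 3 without pair 1 at 24 h, beside 1.29% of all genes called, and to 1, Spry4, without pair 2 at 24 h, beside 0.331%. In the bulk RNA of these cultures, more cells of a type and more RNA per cell cannot be told apart.

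**Figure D1:**
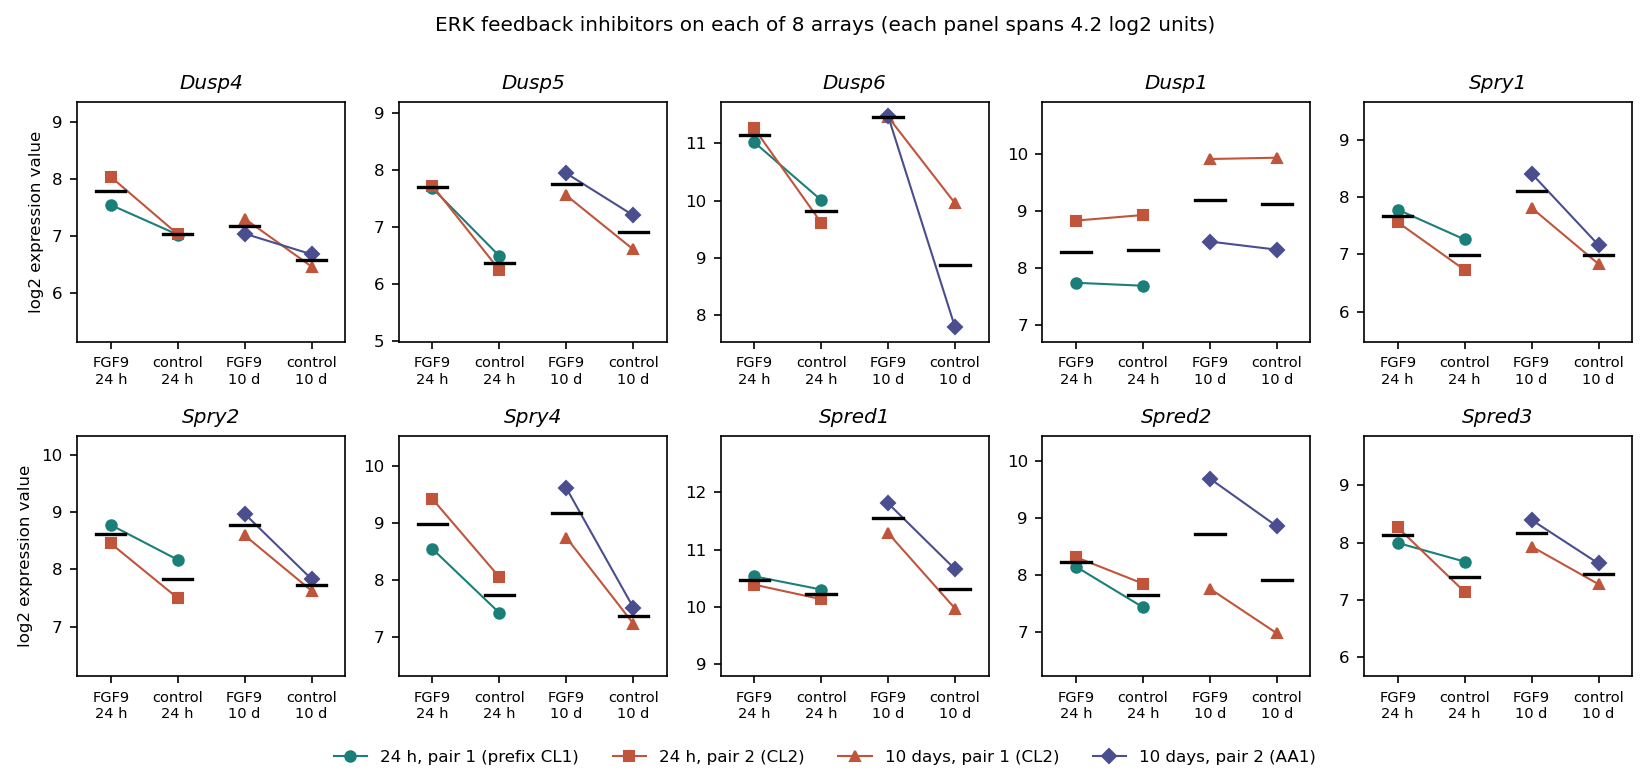
Log2 expression values of the 10 inhibitors on each of the 8 arrays, with FGF9 left of control at each time. Lines join the 2 arrays of a pair and black bars are group means (n = 2). In 9 panels every line falls towards control, while the Dusp1 lines run flat at 4 separate levels.

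The phosphatase genes were examined first, as direct brakes on ERK. Dusp6 encodes a cytoplasmic phosphatase selective for ERK. It stood at 11.02 and 11.26 on the 24 h FGF9 arrays (pair 1, then pair 2, here and below), against 10.01 and 9.61 on the 24 h control arrays. At 10 days it stood at 11.46 and 11.48 with FGF9, against 9.95 and 7.79 in control. The FGF9 arrays lay within 0.46 of each other over both times while the controls spread over 2.22, with the AA1 control lowest, and the groups did not overlap. The difference was 1.33 ± 0.65 at 24 h (SE without the block; ± 0.48 with it, adjusted p = 0.36) and 2.60 ± 0.65 at 10 days (± 0.48 with the block, adjusted p = 0.0382). The 10-day value is a 6.07-fold rise, made of log2 differences of 1.51 in pair 1 and 3.69 in pair 2.

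Dusp5 encodes a nuclear phosphatase that acts on ERK alone. It stood at 7.68 and 7.72 with FGF9 at 24 h, against 6.49 and 6.25 in control, and at 7.55 and 7.94 with FGF9 at 10 days, against 6.61 and 7.20 in control. Both FGF9 arrays were above both controls at each time. At 24 h it had the smallest unadjusted p of the 10 inhibitors in both fits (1.33 ± 0.27 without the block; ± 0.15 with it, adjusted p = 0.122), and at 10 days it rose in the fit with the block (0.84 ± 0.27; ± 0.15 with it, adjusted p = 0.0349). Dusp4 encodes a nuclear phosphatase of ERK and related kinases. It stood at 7.54 and 8.04 with FGF9 at 24 h, against 7.02 and 7.03 in control, and at 7.30 and 7.04 with FGF9 at 10 days, against 6.47 and 6.68 in control. The groups did not overlap at either time, and the difference did not pass at 24 h (0.76 ± 0.23; adjusted p = 0.236 with the block) or at 10 days (0.60 ± 0.23; adjusted p = 0.125 with the block). Averaged over both times Dusp4 rose in the fit with the block (0.68 ± 0.16; ± 0.13 with it, adjusted p = 0.0434).

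Dusp1 encodes a nuclear phosphatase of p38, JNK and ERK that is switched on rapidly by stress and growth factors. It stood at 7.74 and 8.83 with FGF9 at 24 h, against 7.69 and 8.93 in control, and at 9.91 and 8.46 with FGF9 at 10 days, against 9.93 and 8.32 in control. The groups overlapped almost fully, and its level followed the pair, with a range of 2.16 over the 4 FGF9 arrays and 2.24 over the 4 controls. Averaged over both times the difference was 0.02 ± 0.10 with the block (95% interval -0.22 to 0.25, adjusted p = 0.939) and ± 0.56 without it. With the block the intervals of the other 9 inhibitors began at 0.35 or above.

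The 250 bases before the start of Dusp5 and of Dusp1 are shown as the only inhibitor windows given that hold either element named below. A link of these elements to the FGF9 response was not tested. The letters are from RefSeq on GRCr8, at chr1:262543524-262543773 (+ strand) for Dusp5 and chr10:17184603-17184852 (+ strand) for Dusp1. Capitals mark CArG boxes, the element bound by serum response factor, in Dusp5, and TGACGTCA, the cyclic AMP response element, in Dusp1.
Dusp5: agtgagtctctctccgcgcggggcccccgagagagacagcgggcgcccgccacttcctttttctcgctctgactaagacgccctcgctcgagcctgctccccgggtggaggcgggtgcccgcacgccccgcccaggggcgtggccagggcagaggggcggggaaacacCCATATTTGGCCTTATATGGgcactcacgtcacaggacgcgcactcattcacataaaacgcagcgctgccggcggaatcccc
Dusp1: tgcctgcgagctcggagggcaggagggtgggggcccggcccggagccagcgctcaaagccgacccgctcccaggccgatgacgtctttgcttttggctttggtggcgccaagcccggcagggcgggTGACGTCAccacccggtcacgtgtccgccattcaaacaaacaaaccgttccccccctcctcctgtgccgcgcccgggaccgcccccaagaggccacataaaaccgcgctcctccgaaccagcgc
Dusp5 held 2 CArG boxes side by side, which end 72 and 62 bases before the start, and Dusp1 held 1 cyclic AMP response element ending 116 bases before it. A CArG box was found on either strand in 1.5% of 33469 windows of this length, and TGACGTCA in 1.59%. Windows were given for 9 of the 10 inhibitors, 10 windows in all since Spry2 had 2, and neither element was found in any other of them. No match overlapped one of another motif. The AP-1 element TGANTCA was in none of the 10 and in 6.34% of all windows. A match says only that the letters are there.

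Sprouty genes were examined as brakes upstream of RAF. Spry4 stood at 8.54 and 9.41 with FGF9 at 24 h, against 7.42 and 8.05 in control, and at 8.74 and 9.60 with FGF9 at 10 days, against 7.24 and 7.52 in control. The lowest FGF9 array was above the highest control. The difference was 1.24 ± 0.43 at 24 h (± 0.18 with the block, adjusted p = 0.134) and 1.79 ± 0.43 at 10 days (± 0.18 with the block, adjusted p = 0.0173), where Spry4 rose 3.47-fold. In the block fit of the average over both times it ranked 24th of 14506 genes by p (1.52 ± 0.13, adjusted p = 0.0143).

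Spry2, the widely expressed Sprouty that docks to adaptor proteins of the receptor, stood at 8.78 and 8.45 with FGF9 at 24 h, against 8.17 and 7.50 in control. At 10 days it stood at 8.59 and 8.97 with FGF9, against 7.63 and 7.83 in control. Spry1, known for restraining GDNF receptor signalling in the mouse kidney, stood at 7.78 and 7.56 with FGF9 at 24 h, against 7.26 and 6.73 in control, and at 7.81 and 8.41 with FGF9 at 10 days, against 6.83 and 7.16 in control. For both genes all 4 FGF9 arrays lay above all 4 controls. At 24 h neither passed (Spry2 0.78 ± 0.29, adjusted p = 0.168 with the block; Spry1 0.68 ± 0.30, adjusted p = 0.209 with the block). At 10 days both rose in the fit with the block, Spry2 by 1.06 ± 0.15 (SE with the block, adjusted p = 0.0237) and Spry1 by 1.12 ± 0.15 (adjusted p = 0.022), about a 2-fold change in each. The fourth Sprouty gene, Spry3, named outside the naming rule to complete the family, differed by -0.04 at 24 h and 0.18 at 10 days and did not pass.

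The windows of Spry2 and Spry4 are shown as those that hold CCGGAA, here in capitals (TTCCGG on the opposite strand). It is a form of the site bound by ETS factors such as Etv4 and Etv5, and other forms were not searched. They lie at chr15:89111927-89112176 (minus strand) for Spry2 and chr18:30702547-30702796 (minus strand) for Spry4, on GRCr8.
Spry2: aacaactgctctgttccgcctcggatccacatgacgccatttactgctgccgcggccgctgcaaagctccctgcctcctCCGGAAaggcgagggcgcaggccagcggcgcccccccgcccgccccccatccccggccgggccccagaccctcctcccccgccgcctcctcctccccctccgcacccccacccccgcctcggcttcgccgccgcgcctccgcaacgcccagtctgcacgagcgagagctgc
Spry4: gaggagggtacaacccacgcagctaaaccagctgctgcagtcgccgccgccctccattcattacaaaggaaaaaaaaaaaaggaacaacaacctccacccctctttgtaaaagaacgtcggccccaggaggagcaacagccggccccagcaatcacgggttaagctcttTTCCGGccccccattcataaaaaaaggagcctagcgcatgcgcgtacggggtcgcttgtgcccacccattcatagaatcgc
CCGGAA was in 2 of the 10 windows and in 12.6% of all windows, and it ended 165 bases before the start in Spry2 and 75 in Spry4. GGGCGG, the GC box, was in 8 of the 10 windows and in 30.5% of all. The windows of Dusp6 and the second window of Spry2 held none of the 5 motifs searched.

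Spred genes act on RAS through neurofibromin. Spred1, mutated in the human RAS pathway disorder Legius syndrome, stood at 10.53 and 10.39 with FGF9 at 24 h, against 10.30 and 10.13 in control. At 10 days it stood at 11.29 and 11.81 with FGF9, against 9.97 and 10.66 in control. The groups were barely apart at 24 h (0.24 ± 0.30; ± 0.13 with the block, adjusted p = 0.516) and clearly apart at 10 days, where Spred1 rose in the fit with the block (1.23 ± 0.30; ± 0.13 with it, adjusted p = 0.0173). The pair differences were 1.32 and 1.15 at 10 days and 0.23 and 0.25 at 24 h.

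Spred2 stood at 8.15 and 8.32 with FGF9 at 24 h, against 7.44 and 7.85 in control, and at 7.76 and 9.69 with FGF9 at 10 days, against 6.98 and 8.86 in control. At 10 days the groups overlapped, as pair 2 lay 1.93 above pair 1 with FGF9 and 1.87 above it in control, but the difference was 0.78 in one pair and 0.83 in the other. Its SE was therefore 0.79 without the block and 0.14 with it, and Spred2 rose in the fit with the block (0.81, adjusted p = 0.0325). Spred3, a family member that lacks a functional KIT-binding domain, stood at 7.99 and 8.26 with FGF9 at 24 h, against 7.67 and 7.14 in control, and at 7.93 and 8.39 with FGF9 at 10 days, against 7.27 and 7.63 in control. All 4 FGF9 arrays lay above all 4 controls, and the difference of 0.73 ± 0.28 at 24 h and 0.71 ± 0.28 at 10 days did not pass (adjusted p = 0.277 and 0.108 with the block). Averaged over both times Spred3 rose in the fit with the block (0.72 ± 0.15, adjusted p = 0.0475).

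**Figure D2:**
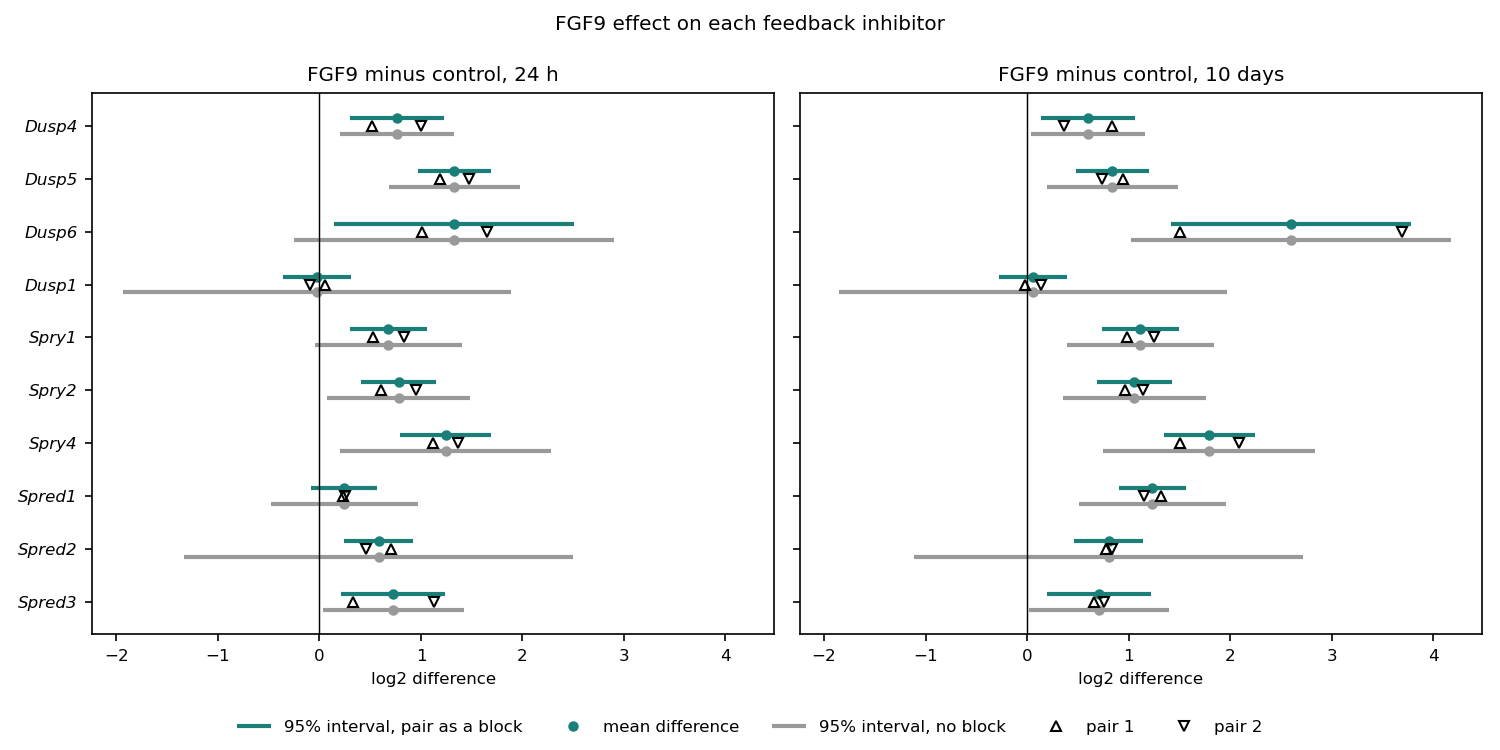
Difference between FGF9 and control (log2) for each inhibitor at 24 h (left) and 10 days (right). Dots are means of the 2 pairs, open triangles the pairs, and bars the 95% intervals of the fits with the pair as a block (green) and without it (grey). The Dusp1 and Spred2 intervals narrow most under the block, and at 10 days the Dusp6 pairs lie at 1.51 and 3.69.

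Taking the times one by one, both FGF9 arrays were above both controls for 9 inhibitors at 24 h (17.5% of all genes) and for 8 at 10 days (14.9% of all genes), the exceptions being Dusp1 at both times and Spred2 at 10 days. All 4 FGF9 arrays lay above all 4 controls for 7, Dusp4, Dusp5, Dusp6, Spry1, Spry2, Spry4 and Spred3, and for 2.26% of all genes. At 24 h no inhibitor and 0% of all genes passed in either limma fit, though the fit without a block had 5 inhibitors among 280 genes at an unadjusted p under 0.05, and the block fit 8 among 1800. With the pair as a random block 0 inhibitors and 1 gene (0.00689%) passed at 24 h. At 10 days 7 rose with the block, Dusp5, Dusp6, Spry1, Spry2, Spry4, Spred1 and Spred2, where 6.43% of all genes were called and 3.12% as higher, and none without it (0% of all genes, 8 inhibitors among 816 genes at an unadjusted p under 0.05). With the random block 6 rose, these without Spred2, beside 4.17% of all genes called and 2.67% as higher. The count of 7 fell to 3, Dusp6, Spry4 and Spred1, without pair 2 at 10 days, beside 3.92% of all genes. Leaving out either 10-day pair gives the same block fit at 24 h, with 1 residual degree of freedom. It left the 24 h differences as they were, with a median of 0.74.

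Whether the FGF9 effect differed between the times was tested as the effect at 10 days minus that at 24 h. The median over the inhibitors was 0.25, with 7 of 10 larger at 10 days, and none passed (0% of genes without a block, 0.0483% with it, and 0.0689% or, as higher, 0.062% with the random block). At an unadjusted p under 0.05 there were 0 inhibitors among 276 genes, 1 among 1866 and 2 among 1656 in these fits. Spred1 had the smallest p, with an effect larger by 0.99 ± 0.19 with the block (95% interval 0.53 to 1.45, unadjusted p = 0.00193, adjusted p = 0.237). For Dusp6 the effect was larger by 1.27 ± 0.68 (-0.40 to 2.94). Its pair differences were 1.01 and 1.65 at 24 h and 1.51 and 3.69 at 10 days, the last in the AA1 pair. For Dusp5 and Dusp4 the effect was smaller at 10 days, with differences of -0.49 ± 0.21 and -0.16 ± 0.27 and intervals that reach up to 0.02 and 0.49.

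Levels at 10 days were also compared with those at 24 h. In the FGF9 cultures no inhibitor passed without the block (0% of all genes, with 2 inhibitors among 1430 genes at an unadjusted p under 0.05), where Spred1 differed by 1.09 ± 0.30 (adjusted p = 0.341) and Dusp4 by -0.62 ± 0.23 (adjusted p = 0.46). With the block this comparison rests on the CL2 arrays, the only prefix present at both times, with 1 array a group there, and takes its spread from all pairs. There Dusp1 was higher at 10 days by 1.08 ± 0.17 (adjusted p = 0.0195) and Spred1 by 0.87 ± 0.16 (adjusted p = 0.0291), and 11% of all genes were called and 4.88% as higher. In the block fit neither passed without pair 1 at 24 h. With the random block none passed (0% of all genes, with 1 inhibitor among 1334 genes at an unadjusted p under 0.05). In the control cultures none passed without the block (0% of all genes, with 0 inhibitors among 415 genes at an unadjusted p under 0.05). With the block no inhibitor passed in control cultures either. Within CL2, control Dusp1 stood at 9.93 at 10 days and 8.93 at 24 h, a fitted difference of 1.00 that did not pass. Outside CL2, control Dusp1 stood at 8.32 at 10 days and 7.69 at 24 h. Control Spry4 stood at 7.24 at 10 days and 8.05 at 24 h within CL2. The fitted Spry4 difference, which also draws on the FGF9 effect in the other pairs, was -1.02 and did not pass.

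The rest of the pathway was followed through 4 lists. Among FGF receptors and their adaptors, 13 of 15 entries were measured, and 2 rose at 10 days in the fit with the block, Fgfr3 (1.29 ± 0.18, SE with the block, adjusted p = 0.022) and the decoy-like receptor Fgfrl1 (1.44 ± 0.18, adjusted p = 0.0195). Both were lower with FGF9 in both pairs at 24 h (-0.50 and -0.23 on average), which did not pass. Fgfr1 differed by 0.12 at 24 h and 0.51 at 10 days, Fgfr2 by -0.30 and 0.10, and the adaptor gene Shc1 by 0.14 and 0.79, and none of these passed. The Fgf9 transcript itself, which the added protein does not bring, differed by -0.22 at 24 h and fell by 1.03 at 10 days in the fit with the block (adjusted p = 0.0291).

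Of the genes of the cascade between RAS and ERK, 10 of 16 entries were measured, and none was called at either time in either fit. The list median was 0.08 at 24 h and -0.11 at 10 days. Nras, a RAS gene, differed by 0.25 and 0.60 at these times, Rasa1, a GTPase activator that turns RAS off, by 0.43 and 0.25, Map2k2, which encodes a MEK kinase, by 0.10 and -0.42, and Braf by -0.11 and -0.22.

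Of the other phosphatases and feedback genes, 13 of 15 entries were measured. With the block 3 of the 13 rose at 10 days and 0 fell. These were Dusp7, another cytoplasmic ERK phosphatase (0.79 ± 0.13, adjusted p = 0.0291), Errfi1, an inhibitor of the epidermal growth factor receptor (1.20 ± 0.25, adjusted p = 0.0476), and Socs3, an inhibitor of cytokine receptors (1.85 ± 0.18, adjusted p = 0.0173). Dusp7 was higher in every pair, by 0.51, 0.47, 0.78 and 0.81. Pik3ip1, an inhibitor of PI3 kinase, fell when both times were averaged (-0.60 ± 0.11, adjusted p = 0.0399), through -1.18 at 24 h and -0.01 at 10 days. The list median was 0.17 at 24 h and 0.11 at 10 days.

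Of the ERK target genes, 20 of 22 were measured, 19 were higher with FGF9 at 24 h and 18 at 10 days, with medians of 0.55 and 0.92. With the block none was called at 24 h and 9 rose at 10 days, and 12 rose on the average over both times. Etv4 (0.43 at 24 h and 2.50 at 10 days) and Etv5 (0.84 and 2.29) are ETS factors induced by FGF signalling, and both rose at 10 days (adjusted p = 0.0065 and 0.0144). Ccnd1, cyclin D1, differed by 2.13 and 2.89, Hbegf, which encodes a growth factor for EGF receptors, by 2.88 and 2.06, and Trib1, a pseudokinase that binds MEK, by 1.82 and 2.35. These 3 also rose at 10 days with the block (adjusted p = 0.0143 to 0.022). Without the block no gene of the 4 lists passed at either time (0% of all genes).

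**Figure D3:**
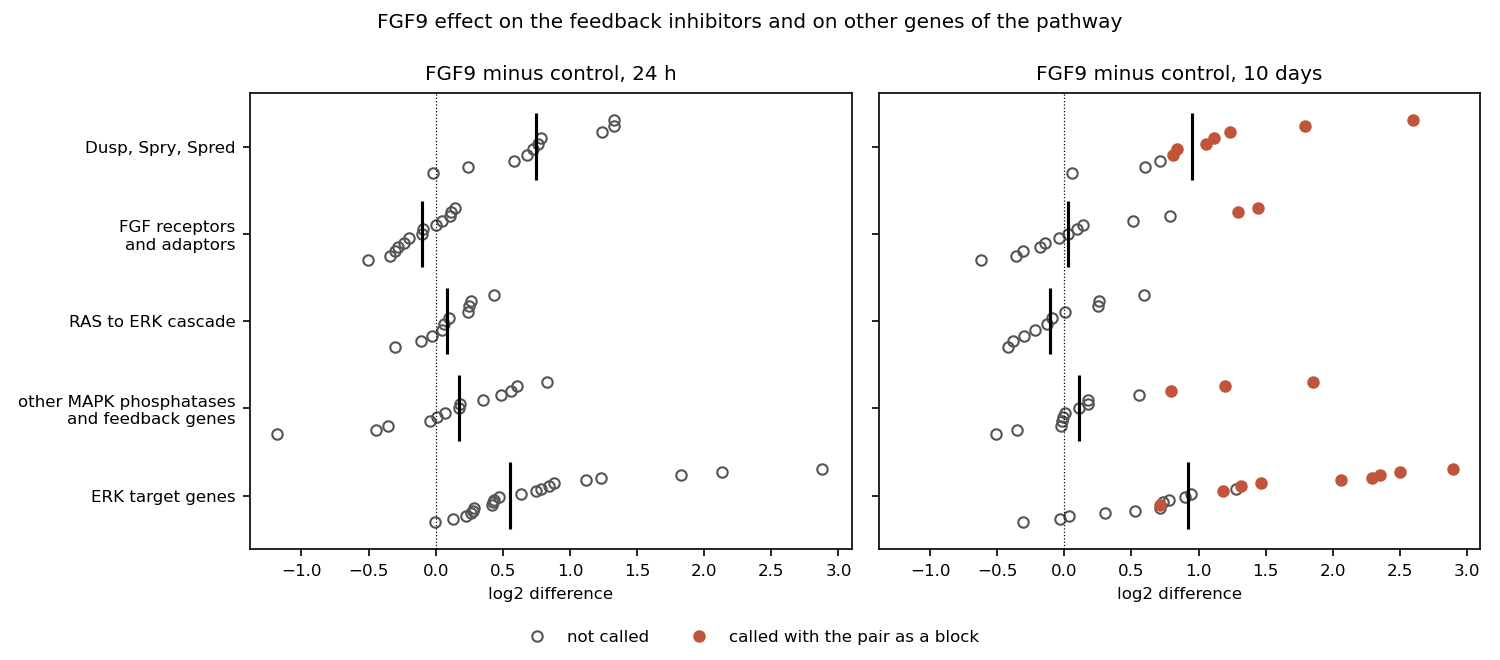
Difference between FGF9 and control (log2) of each measured gene in the inhibitor group and 4 pathway lists, at 24 h (left) and 10 days (right). Each circle is a gene, filled where it was called with the pair as a block, and black bars are medians. The medians of the inhibitors (0.74 and 0.95) and of the ERK targets (0.55 and 0.92) lie right of the others, which run from -0.11 to 0.17.

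The genes most like the inhibitors were sought by the Pearson correlation, over the 8 arrays, with the mean profile of the 10, each centred on its own mean. The 6 closest genes were Trib1 (r = 0.982), Upp1, uridine phosphorylase (0.980), Fosl1, an AP-1 subunit (0.979), Gfpt2, an enzyme of hexosamine synthesis (0.974), Kiaa0040 (0.959) and Suv39h1, a histone methyltransferase (0.958). That profile separates FGF9 from control, so the choice itself favours genes that are higher with FGF9. All 6 were higher with FGF9 in all 4 pairs, as were 14.2% of all genes. Upp1, for example, stood at 6.49 and 6.86 with FGF9 at 24 h, against 6.01 and 5.77 in control, and at 6.84 and 7.59 with FGF9 at 10 days, against 5.72 and 5.95 in control. Of the inhibitors themselves Spry4 (0.946) and Spry1 (0.924) were closest to the mean profile, which contains them, and Dusp1 was at 0.04. The arrays share the 4 groups and the pairs, so these values only describe likeness.

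Cell type markers moved in the same samples. Markers of neurons, astrocytes, oligodendrocytes and their precursors had list means of 8.74 or above on every array, while endothelial markers averaged 5.31 to 6.47, below the array medians. Pecam1 and Tek were under 6 on every array. On the CL2 control arrays (24 h, then 10 days) Kdr stood at 9.01 and 8.95 and Cdh5 at 7.13 and 6.71. On the CL2 FGF9 arrays Kdr stood at 7.48 and 6.07 and Cdh5 at 7.21 and 5.88. Outside CL2, Kdr stood at 5.94 with FGF9 and 5.72 in control at 24 h, and at 5.92 and 5.46 at 10 days. No endothelial marker was called at either time. Markers of cycling cells were higher with FGF9 on average for 6 of 6 genes at both times, and none was called. Their list means were 8.64 to 9.81 with FGF9 and 7.19 to 8.77 in control at 24 h. At 10 days they were 7.59 with FGF9 and 7.41 in control in pair 1, and 7.62 and 6.17 in pair 2. Mcm5 was lower with FGF9 in pair 1 at 10 days (6.76 against 6.89). Astrocyte markers were lower with FGF9 for 8 of 8 genes at 24 h, with a median difference of -0.69 and none called, and at 10 days 5 of 8 were higher (list means of 11.92 to 12.31 with FGF9 and of 12.02 in both controls). Neuron markers were lower for 8 of 8 genes at both times, and 7 fell at 10 days in the fit with the block (list means of 9.89 to 10.76 with FGF9 and 10.81 to 11.69 in control). Markers of oligodendrocyte precursors had means of 9.39 to 9.86 with FGF9 and 8.76 to 8.84 in control at 10 days. At 24 h the means were 9.16 to 9.19 in all 4 arrays. On average 3 of 5 were higher with FGF9 at 24 h and 4 of 5 at 10 days, where 1 rose in the fit with the block. Pdgfra was lower at 10 days (-0.27). Microglia and macrophage markers averaged 7.89 to 8.58 with FGF9 and 7.48 to 8.98 in control, and Schwann cell markers 6.12 to 7.28 with FGF9 and 6.11 to 7.24 in control, over both times. Of 4 Schwann cell markers, 2 were higher with FGF9 on average at 10 days, and 1 rose in the fit with the block. The part of these shifts in the inhibitor results was not tested.

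Markers also differed between pairs. Oligodendrocyte and myelin markers had list means of 10.76 to 11.47 in pair 1 at each time and 8.74 to 9.35 in pair 2. Within pairs, 0 of 7 were higher on average with FGF9 at 24 h (median difference -0.54) and 3 of 7 at 10 days (median difference -0.18), and none was called. Fibroblast and pericyte markers had list means of 6.83 and 6.62 on the AA1 arrays with FGF9 and in control, and of 8.46 to 9.33 elsewhere. Not every marker of the list followed its mean. Rgs5 stood at 7.66 with FGF9 and 5.64 in control on AA1 arrays, against 6.02 to 6.52 on the 24 h arrays. On the CL2 arrays at 10 days it stood at 8.20 and 6.04. With FGF9, 3 of 6 markers of this list were higher on average at 10 days, and 1 rose in the fit with the block. Among the inhibitors, Spred2 was highest and control Dusp6 lowest on AA1 arrays, and Dusp1 differed among the pairs at both times. The part of the cell mixture in this was not tested.

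**Figure D4:**
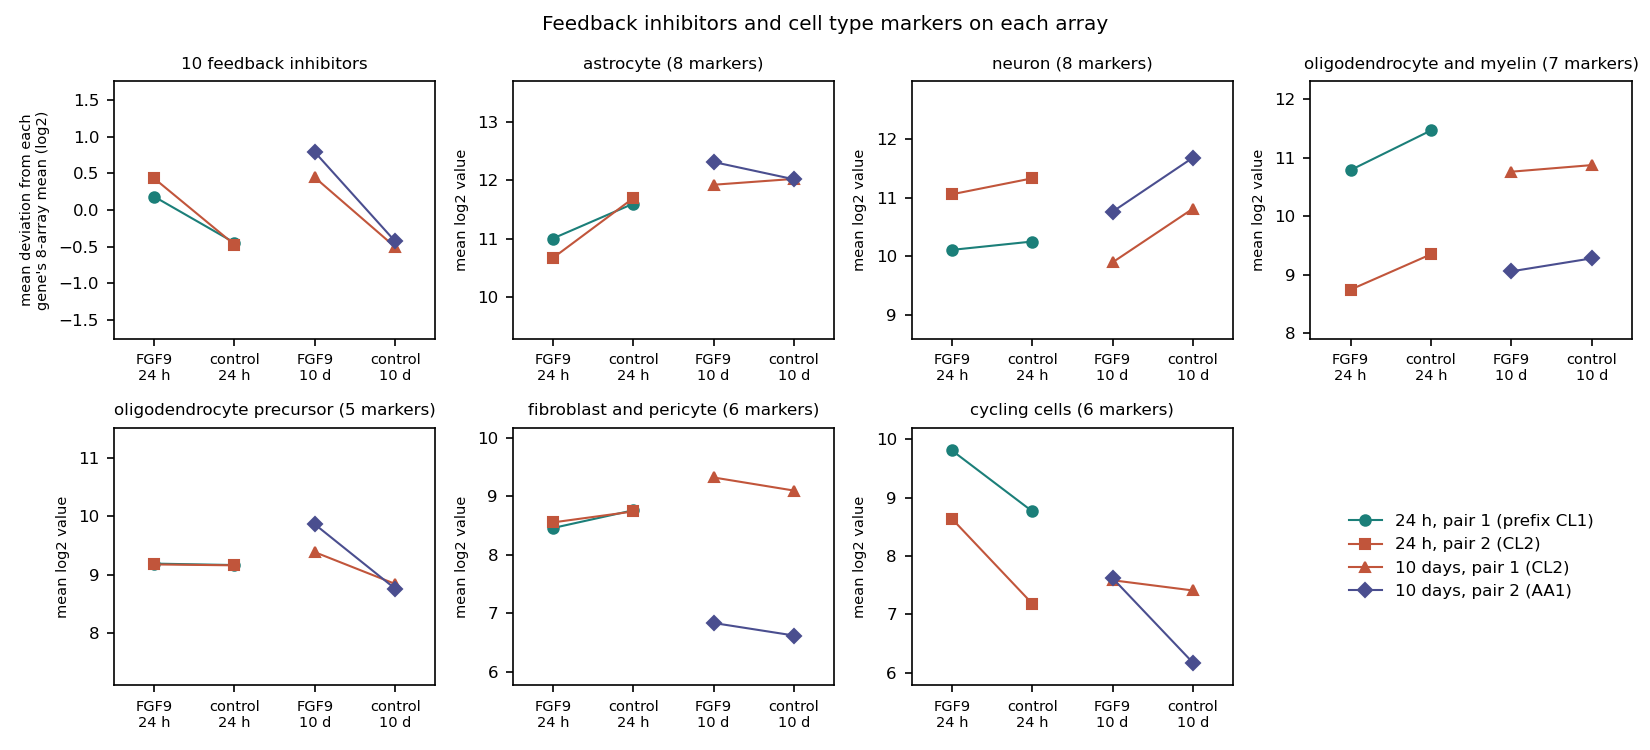
Mean centred value of the 10 inhibitors (first panel) and mean log2 value of 6 cell type marker lists on each array, with FGF9 left of control and lines joining pairs. Inhibitor means separate FGF9 (0.18 to 0.79) from control (-0.50 to -0.43) on all arrays, while myelin markers separate the pairs at each time and fibroblast markers set only the AA1 pair (6.83 and 6.62) apart.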

How the data were processed

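RNA of 8 samples was hybridised to Affymetrix arrays of the type Rat Gene 1.0 ST, 1 array each. The authors deposited 1 value per feature and array on what the values show to be a log2 scale, for which the submitters' processing notes name Partek 6.5 and GCRMA (a method that corrects background and summarizes probes). What else was done is not given here. Values were used as deposited, and groups and replicate numbers come from the sample titles. Of 29214 features, 15310 had 1 symbol in the platform annotation, 323 several and 13581 none. For each of 527 genes with several features, the one with the highest mean was kept, which left 14506 genes.

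The FGF9 effects, their average and difference, and the time contrasts were fitted with limma 3.58.1 in R 4.3.3 on 4 group means, without a block (4 residual degrees of freedom, the main design), with the pair as a fixed block (2 degrees of freedom) and as a random block. Adjusted p-values in all texts are limma's. Deviations of paired arrays from group means correlated at 0.757 (24 h) and 0.819 (10 days), and the median residual SD was 0.30 without and 0.145 with the block. Pairing comes from replicate numbers and shared name prefixes.

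The 10 genes, the pathway and marker lists and the naming rule were chosen with earlier results of these data known. The rule named all 10, up to 4 genes of each pathway list with the smallest unadjusted p for the average effect, Fgf9, Fgfr1, Fgfr2, Fgfr3, Etv4, Etv5 and Ccnd1, and the 6 genes closest to the mean profile. Marker lists cover astrocytes, neurons, oligodendrocytes and their precursors, microglia, Schwann, endothelial, fibroblast and cycling cells. Promoter windows are RefSeq's on GRCr8, both strands searched. The fits were run on simulated data built with pair levels, which checks the computation but not whether the block suits these arrays. Alternatives are given in the closing section.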

Additional observations from a re-analysis of the deposited data

Results flagged for a closer look

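Among the 29 genes examined for a difference between times (the 10 inhibitors, Fgf9 and the named pathway genes), 3 moved one way in both pairs at 10 days and the opposite way in both pairs at 24 h. That rule looks only at signs, and the share of all genes that meet it was not computed, so it does not set these 3 apart. None of the 3 passed the limma test of that difference, in which no inhibitor passed either. The FGF9 effect on Fgfr3, an FGF receptor gene, was 1.29 at 10 days and -0.50 at 24 h, a difference of 1.80 ± 0.25 log2 units (SE with the block; adjusted p = 0.165 with it and 1 without). For Fgfrl1, whose receptor lacks a kinase domain, it was 1.44 at 10 days and -0.23 at 24 h, a difference of 1.68 ± 0.25 (adjusted p = 0.185 with the block). For Map2k2, a MEK gene, it was -0.42 at 10 days and 0.10 at 24 h, a difference of -0.52 ± 0.26 (adjusted p = 0.466 with the block).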

How the results depend on the processing

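Without the block, 0 inhibitors were called in every contrast, also when each array was left out in turn. With the replicate block, 7 were called at 10 days (6.43% of all genes) and 9 on the average (6.48%). Quantile normalization with the block gave the same counts, beside 6.82% and 6.65% of all genes. So did the block with dim genes left out (9.08% and 9.18%) or with an intensity trend and robust prior (8.18% and 8%). These 3 alternatives were added after seeing the data. The random block gave 6 at 10 days (4.17% of all genes) and 8 on the average (3.77%). Counts between times in FGF9 cultures, where the block fit compares 1 pair with 1 pair, hold no spread between pairs. Leaving out 1 pair in the block fit (1 residual degree of freedom) gave 0 to 3 called at 24 h, 3 to 6 at 10 days, 1 to 9 on the average, 0 to 1 for the difference of effects and 0 to 2 between times in FGF9 cultures. Over all genes the same fits called 0 to 237, 469 to 1506, 48 to 1814, 0 to 322 and 486 to 2406. Where a group is left with 1 array, that array is assumed to vary like the others. The median FGF9 difference at 10 days was 0.799 to 1.33 with an array left out, 0.988 without pair 1 at 10 days and 0.996 with array medians subtracted.

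Of 690 recomputed single-gene values, 550 kept direction and call, 124 kept direction and passed only in the alternative, and 16 changed sign, 14 of them for Dusp1. Dusp1 ran from -0.641 to 0.595 at 24 h, -0.745 to 0.864 at 10 days and -0.384 to 0.420 on the average when an array was left out. With a pair left out of the block fit it ran from -0.097 to 0.0515 at 24 h, -0.023 to 0.142 at 10 days and -0.0229 to 0.0597 on the average, and quantile normalization gave 0.0135 at 24 h with and without the block. Spred2 at 10 days ran from -0.156 to 1.77 when an array was left out. The dim filter kept 10879 genes and all 10 inhibitors.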
